A study of Mus musculus with 16 samples.

Results

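The 10 genes described here, Lgr5, Olfm4, Ascl2, Smoc2, Axin2, Sox9, Rnf43, Znrf3, Cd44 and Ephb2, were chosen by name as markers of intestinal stem cells and genes of the Wnt pathway. They are 10 of the 24421 genes counted in each library, and all 10 were among the 13429 genes that passed the filter on low counts. Bulk RNA sequencing was performed on epithelium released with EDTA from wild-type C57BL6/J mice at postnatal day 6 (P6), before weaning, and at postnatal day 36 (P36), after weaning. Each of 4 mice per age, 2 females and 2 males, gave 1 library from the jejunum and 1 from the ileum, so that the 4 groups (P6 jejunum, P6 ileum, P36 jejunum and P36 ileum) held 4 libraries each and no mouse was treated. In each group replicates 1 and 2 are females and replicates 3 and 4 are males, and the same replicate number in both regions of an age is the same mouse.

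Stem cells at the base of intestinal crypts divide throughout life and replace the epithelium, and Wnt signalling maintains them. In this pathway R-spondins bind receptors of the Lgr family and keep the ubiquitin ligases Rnf43 and Znrf3 from removing Wnt receptors. Beta-catenin then enters the nucleus and binds TCF factors there, and target genes such as Axin2, Ascl2, Cd44, Sox9 and Ephb2 are transcribed. At P6 the mouse small intestine has not yet formed mature crypts or Paneth cells, the secretory neighbours of adult stem cells, and proliferation takes place between the villi.

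Library totals ranged from 12159237 to 25947276 counts. The tissue label was checked against defining genes of epithelium: Epcam lay between 1137 and 2230 counts per 1000000 counts (CPM, scaled by trimmed mean of M values) and Cdh1 between 792 and 1064 CPM in the 16 libraries. A pair of P6 ileum libraries stood apart. Replicate 2 held muscle RNA, with 80.5 CPM of Myh11 against at most 0.736 CPM in the other 15 libraries, and a summed level of 6 smooth muscle genes of 225 CPM against 1.30 to 3.53 CPM in the rest of its group. Replicate 4 was farthest from its group across all tested genes (a mean root-mean-square log2 distance of 1.3, against 0.81 to 0.932 for the others) and held little keratin RNA, with 256 CPM of Krt8 against 1113 to 1331 CPM. The calls of the 10 genes that rest on the P6 ileum are therefore also given without both libraries, an alternative chosen after seeing the data. These refits leave out the ileum of the mice of replicates 2 and 4 but keep their jejunum. At P6 the mice of replicates 1 and 3 share a label prefix, and those of replicates 2 and 4 share another. The reduced P6 ileum thus holds a single prefix, while the P6 jejunum keeps both. Library quality and label prefix cannot be told apart in these refits.

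The levels of the 10 genes spanned more than 2 orders of magnitude. Compared per length of transcript, as CPM divided by the length of the exons in kilobases (RPKM), Olfm4 was the highest in all 4 groups, with group means from 124 to 293 RPKM, and Znrf3 the lowest, from 1.07 to 1.61 RPKM. Ephb2 followed Olfm4 in the P6 jejunum (40.3 ± 4.56 RPKM, SD, n = 4) but stood behind Olfm4, Axin2, Rnf43 and Lgr5 in the P6 ileum (7.09 ± 3.58 RPKM). Lgr5 stood behind Olfm4, Axin2 and Rnf43 in the P6 ileum (7.70 ± 1.92 RPKM) and above Znrf3 alone in the P36 jejunum (1.08 ± 0.260 RPKM). Differences below are log2 fold changes of CPM from edgeR's quasi-likelihood test, with p adjusted by Benjamini-Hochberg over the 13429 genes. The ± values given with them are standard errors derived from that test. Each is the absolute log2 fold change divided by the square root of the test's F statistic. A gene is said to have changed where the adjusted p was below 0.05.

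**Figure D1:**
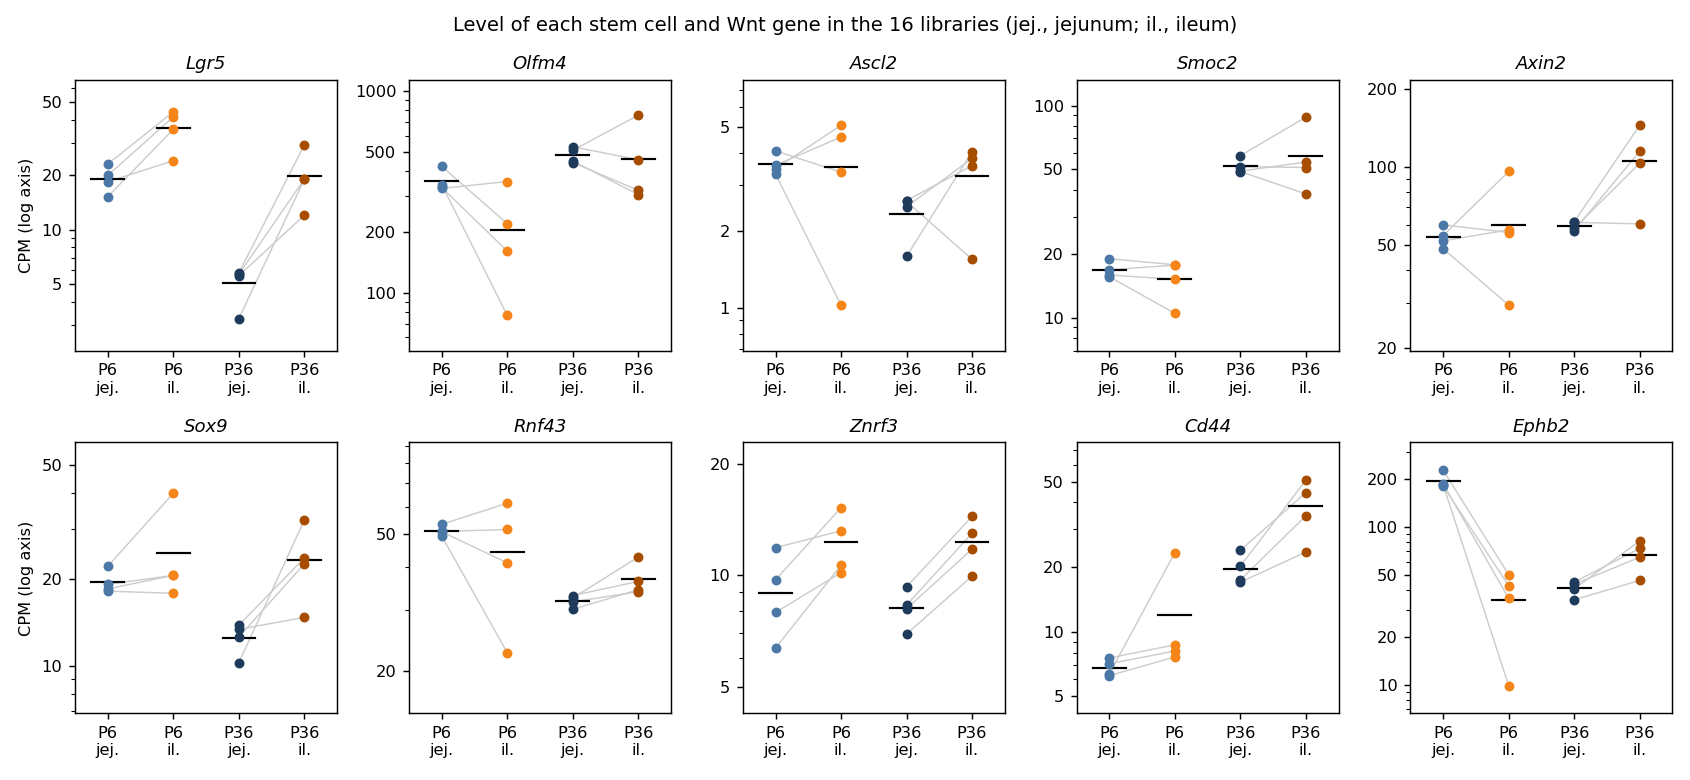
CPM of the 10 genes in the 16 libraries, on log axes; points are libraries, black bars are group means (n = 4) and grey lines join the regions of a mouse. Lgr5 was higher in the ileum than in the jejunum in every mouse at both ages. Ephb2 was higher in the jejunum at P6 and in the ileum at P36, where the difference did not pass edgeR's test (adjusted p = 0.171).

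Lgr5, the receptor for R-spondins that marks cycling crypt base stem cells, was higher in the ileum than in the jejunum at both ages and fell with age in both regions. In the P6 jejunum its levels were 22.9, 18.3, 19.8 and 15.2 CPM for replicates 1 to 4, against 44.2, 23.9, 41.5 and 35.5 CPM in the P6 ileum. The P36 jejunal values were 5.59, 5.69, 5.79 and 3.25 CPM, and the P36 ileal ones 12.0, 18.9, 29.2 and 18.9 CPM. The regions did not overlap at either age, and the P36 jejunum lay below all other libraries, whereas the P36 ileum overlapped both P6 groups. The jejunum minus ileum difference was -0.93 ± 0.26 at P6 (adjusted p = 0.0157) and -1.96 ± 0.27 at P36 (adjusted p = 0.000143), with lower values in the jejunum of 4 of 4 mice at each age. From P6 to P36 Lgr5 fell by 1.90 ± 0.27 in the jejunum (adjusted p = 2.52e-05) and by 0.87 ± 0.26 in the ileum (adjusted p = 0.00977). The change of the regional difference between ages was 1.03 ± 0.37 (adjusted p = 0.104), which did not pass the test. Without P6 jejunum replicate 4 the regional difference at P6 was -0.83 (adjusted p = 0.0576). Without both P6 ileum libraries that stood apart it was -1.20 (adjusted p = 0.00566), and the ileal fall with age was -1.11 (adjusted p = 0.00372). In bulk libraries fewer cells that express a gene and less of its RNA per cell cannot be told apart.

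Olfm4 and Smoc2 are both enriched in adult crypt base stem cells: Olfm4 encodes a secreted glycoprotein and Smoc2 a calcium-binding matrix protein. Olfm4 measured 422, 332, 343 and 328 CPM in the P6 jejunum and 220, 161, 77.2 and 355 CPM in the P6 ileum. The P36 jejunum gave 448, 528, 507 and 441 CPM and the P36 ileum 306, 456, 757 and 321 CPM. The ileal libraries were the most spread, and each group overlapped the next in order of level. The jejunal libraries did not overlap between ages, at 328 to 422 CPM at P6 and 441 to 528 CPM at P36. Olfm4 rose with age in the ileum by 1.18 ± 0.36 (adjusted p = 0.0108), but not past the test without P36 ileum replicate 3 (0.84, adjusted p = 0.0505). The rise was 1.64 without both P6 ileum libraries that stood apart (adjusted p = 0.00337). In the jejunum its change with age was 0.43 ± 0.35 (adjusted p = 0.329), which passed when the 8 jejunal libraries were fitted alone (0.45, adjusted p = 0.00279). Its regional difference at P6 was 0.81 ± 0.36 (adjusted p = 0.108), from 0.52 to 1.23 when single libraries were left out, and it passed without P6 ileum replicate 4 (1.23, adjusted p = 0.0101) and without both libraries (1.24, adjusted p = 0.0326).

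Smoc2 rose with age in both regions. It measured 19.0, 16.8, 15.9 and 15.6 CPM in the P6 jejunum and 17.8, 17.7, 15.2 and 10.5 CPM in the P6 ileum. At P36 the jejunum gave 48.8, 49.1, 58.1 and 51.5 CPM and the P36 ileum 38.3, 54.2, 88.2 and 51.0 CPM. Every P36 library lay above every P6 library, and the regions overlapped at both ages. The rise was 1.62 ± 0.22 in the jejunum (adjusted p = 1.43e-05) and 1.92 ± 0.22 in the ileum (adjusted p = 2.56e-06), where it was 1.82 without both P6 ileum libraries that stood apart (adjusted p = 3.89e-05). Thus Lgr5 and Smoc2, both used as stem cell markers, moved in opposite directions with age in these libraries.

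Ascl2, a basic helix-loop-helix factor of crypt base stem cells, was scarce and passed no test in the fit of all 16 libraries. It measured 3.30 to 4.06 CPM in the P6 jejunum, 1.03 to 5.10 CPM in the P6 ileum, 1.59 to 2.61 CPM in the P36 jejunum and 1.55 to 4.03 CPM in the P36 ileum, from 21 to 94 counts a library. The lowest value was that of P6 ileum replicate 4. Its change with age in the jejunum was -0.64 ± 0.39 (adjusted p = 0.187), with a 95% interval from -1.49 to 0.21. It passed when the 8 jejunal libraries were fitted alone (-0.63, adjusted p = 0.0174).

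Sox9, a transcription factor of stem, progenitor and Paneth cells, was lowest in the P36 jejunum. It measured 18.5, 19.2, 22.2 and 18.2 CPM in the P6 jejunum and 20.6, 20.6, 39.8 and 17.9 CPM in the P6 ileum. The P36 jejunum gave 13.4, 10.3, 13.9 and 12.6 CPM and the P36 ileum 14.8, 32.2, 23.7 and 22.6 CPM. The P36 jejunum did not overlap any other group. Sox9 was lower in the jejunum than in the ileum at P36 by a log2 difference of -0.89 ± 0.25 (adjusted p = 0.0234), and it fell with age in the jejunum by 0.64 ± 0.25 (adjusted p = 0.0434). Both calls were close to the threshold: the first was lost without P36 ileum replicate 2 (-0.69, adjusted p = 0.103) or without P36 jejunum replicate 1 (-0.93, adjusted p = 0.0525), 2 (-0.81, adjusted p = 0.0768) or 4 (-0.90, adjusted p = 0.0558). The second was lost in 11 of the 16 refits that left out 1 library, with adjusted p up to 0.115, and with the mouse as a random block (adjusted p = 0.0508). In the ileum the change of Sox9 with age was -0.08 ± 0.25 (adjusted p = 0.793).

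Axin2, Rnf43 and Znrf3 are Wnt targets that act back on the pathway: Axin2 is a scaffold of the complex that destroys beta-catenin, and Rnf43 and Znrf3 remove Wnt receptors from the cell surface. Axin2 measured 51.9, 59.8, 54.5 and 48.5 CPM in the P6 jejunum and 57.3, 55.9, 96.2 and 29.3 CPM in the P6 ileum. At P36 the jejunum gave 61.5, 56.9, 61.2 and 58.0 CPM and the P36 ileum 145, 115, 60.4 and 104 CPM. Jejunal libraries of both ages stayed within a narrow range, and the ileal libraries spread beyond it on both sides. Axin2 rose with age in the ileum by 0.83 ± 0.28 (adjusted p = 0.0204). This call was lost without P36 ileum replicate 1 (0.64, adjusted p = 0.0730) and without the pair of P6 ileum libraries that stood apart (0.47, adjusted p = 0.141). In the jejunum the change was 0.15 ± 0.28 (adjusted p = 0.693). The regional difference at P36, -0.84 ± 0.28, did not pass (adjusted p = 0.0557) but did by DESeq2 (-0.84, adjusted p = 0.0291) and in the 8 P36 libraries alone (-0.82, adjusted p = 0.0295).

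Rnf43 measured 50.8, 50.7, 53.3 and 49.3 CPM in the P6 jejunum and 30.2, 32.6, 31.8 and 33.1 CPM in the P36 jejunum. These ranges did not overlap, and Rnf43 fell with age in the jejunum by 0.68 ± 0.21 (adjusted p = 0.0131), though not past the test without P36 jejunum replicate 3 (-0.59, adjusted p = 0.0554). In the ileum it measured 51.5, 41.2, 61.3 and 22.7 CPM at P6 and 34.4, 42.8, 34.0 and 36.4 CPM at P36. The ileal difference with age was -0.26 ± 0.21 (adjusted p = 0.307). It passed without P6 ileum replicate 4, the lowest of its group (-0.47, adjusted p = 0.00255), and without both libraries that stood apart (-0.61, adjusted p = 0.000311).

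Znrf3 was lower in the jejunum than in the ileum in 4 of 4 mice at each age, but the differences of -0.45 ± 0.20 at P6 (adjusted p = 0.109) and -0.58 ± 0.20 at P36 (adjusted p = 0.0608) did not pass. It measured 9.73, 7.94, 11.9 and 6.37 CPM in the P6 jejunum and 15.2, 10.2, 13.2 and 10.6 CPM in the P6 ileum. The P36 jejunum gave 6.94, 9.31, 8.13 and 8.31 CPM and the P36 ileum 9.95, 14.4, 11.8 and 13.0 CPM. With the mouse as a fixed block, which compares the regions within each animal, the differences passed at P6 (-0.47, adjusted p = 0.0359) and at P36 (-0.58, adjusted p = 0.0210). The change of Znrf3 with age was -0.13 ± 0.20 in the jejunum (adjusted p = 0.611) and 0.00 ± 0.20 to 2 decimals in the ileum (adjusted p = 0.991), with a 95% interval from -0.44 to 0.43 in the ileum.

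Cd44, a receptor for hyaluronan on crypt cells, rose with age in both regions. It measured 7.55, 6.25, 7.09 and 6.37 CPM in the P6 jejunum and 8.69, 7.63, 8.13 and 23.3 CPM in the P6 ileum. At P36 the jejunum gave 17.0, 24.0, 20.2 and 17.4 CPM and the P36 ileum 23.5, 44.4, 50.7 and 34.7 CPM. Among the P6 libraries the value of ileum replicate 4 alone reached the range of the P36 jejunum. The rise was 1.53 ± 0.33 in the jejunum (adjusted p = 0.00101) and 1.68 ± 0.32 in the ileum (adjusted p = 0.000394), and in the ileum it was 2.24 without P6 ileum replicate 4 (adjusted p = 6.12e-07) and 2.19 without both libraries that stood apart (adjusted p = 1.17e-05). The regional difference was -0.81 ± 0.32 at P6 (adjusted p = 0.0787) and -0.96 ± 0.32 at P36 (adjusted p = 0.0502), lower in the jejunum of 4 of 4 mice at each age. The P6 difference depended on P6 ileum replicate 4: it was -0.25 without that library (adjusted p = 0.393) and -0.33 without both that stood apart (adjusted p = 0.369), whereas it passed without P6 ileum replicate 2 (-0.97, adjusted p = 0.0435) or 3 (-0.97, adjusted p = 0.0495). With the mouse as a fixed block the P36 difference was -0.92 (adjusted p = 0.0418), and by DESeq2 it was -0.97 (adjusted p = 0.0187).

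Ephb2, a receptor tyrosine kinase that sorts cells along the crypt through ephrin-B ligands, had the largest regional difference of the 10 genes, and its direction turned with age. It measured 229, 187, 182 and 185 CPM in the P6 jejunum and 49.9, 35.3, 42.5 and 9.91 CPM in the P6 ileum. The P36 jejunum gave 34.6, 44.8, 40.6 and 43.4 CPM and the P36 ileum 45.9, 73.2, 81.6 and 64.3 CPM. The P6 jejunum stood above all other libraries, and at P36 every ileal library was above every jejunal one. The jejunum minus ileum difference was 2.51 ± 0.34 at P6 (adjusted p = 6.48e-05), with ratios of 4.28 to 18.7 within the 4 mice, and -0.70 ± 0.33 at P36 (adjusted p = 0.171), with ratios of 0.497 to 0.754. The change of the regional difference with age was 3.21 ± 0.47 (adjusted p = 0.000481). With age Ephb2 fell by 2.26 ± 0.34 in the jejunum (adjusted p = 4.08e-05) and rose by 0.95 ± 0.33 in the ileum (adjusted p = 0.0228). The ileal rise was 0.53 without both P6 ileum libraries that stood apart (adjusted p = 0.0344), and 0.83 without P36 ileum replicate 3 (adjusted p = 0.0608). Without the P6 pair the regional difference at P6 was 2.06 (adjusted p = 9.60e-06) and its change with age 2.75 (adjusted p = 1.70e-05). Without P6 ileum replicate 4 alone, the P36 regional difference kept its size (-0.70) with an adjusted p of 0.00477.

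Ephb3, which encodes a related receptor and is on the list of other Wnt targets, was read beside Ephb2 after values were seen. Its levels were 20.2, 24.9, 12.8 and 17.9 CPM in the P6 jejunum and 3.31, 2.33, 2.93 and 0.147 CPM in the P6 ileum. At P36 the jejunum gave 6.65, 7.63, 7.45 and 9.11 CPM and the P36 ileum 13.2, 23.0, 21.5 and 16.1 CPM. As for Ephb2, the jejunum was higher in 4 of 4 mice at P6 and lower in 4 of 4 at P36. The change of the regional difference was 4.38 ± 0.66 (adjusted p = 0.000620) and 3.83 without the P6 pair (adjusted p = 1.77e-05). The ligand gene Efnb2 differed the other way at P6, with means of 12.0 CPM (jejunum) and 31.8 CPM (ileum) (-1.41 ± 0.15, adjusted p = 7.81e-06).

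**Figure D2:**
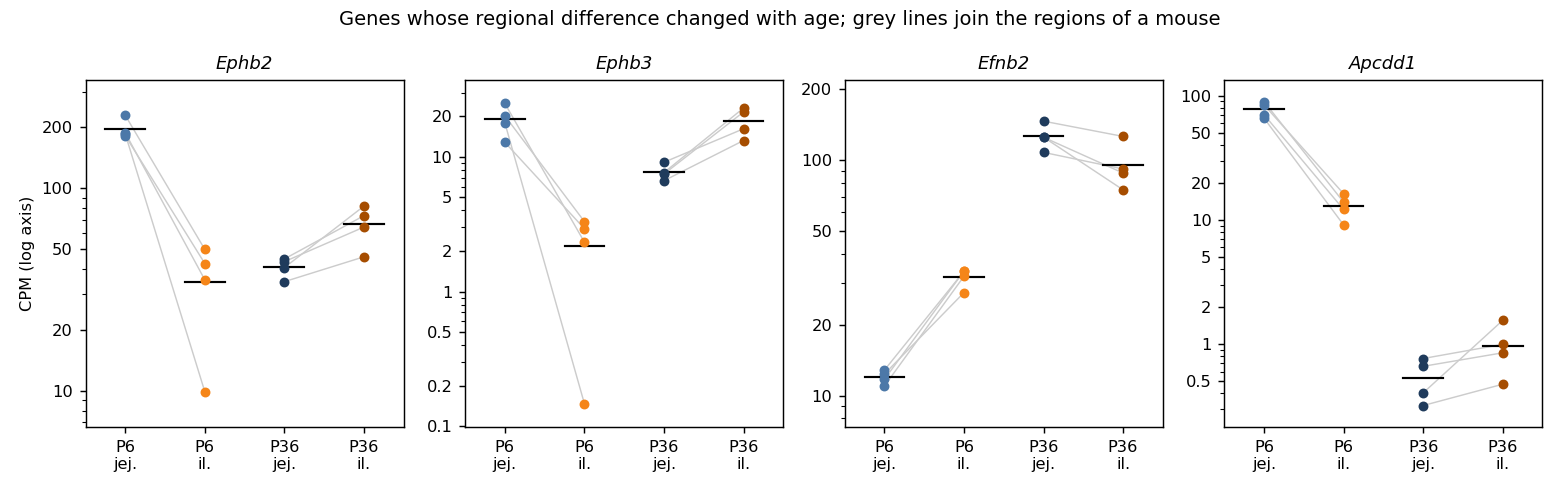
CPM on log axes of 4 genes whose regional difference changed between P6 and P36: Ephb2, Ephb3, the ephrin ligand gene Efnb2 and the Wnt inhibitor gene Apcdd1. Points are libraries, black bars group means (n = 4) and grey lines join the regions of a mouse; Ephb2 and Ephb3 lines slope down at P6 and up at P36.

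Ephb2 and Ephb3 shared this pattern, so the 250 bases before their RefSeq transcription starts (GRCm38.p6) are shown, 5′ to 3′ on the strand of the gene, at chr4:136836013-136836262 on the minus strand for Ephb2 and chr16:21204545-21204794 on the plus strand for Ephb3. Capitals mark the 1 match found to the motifs searched.

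Ephb2: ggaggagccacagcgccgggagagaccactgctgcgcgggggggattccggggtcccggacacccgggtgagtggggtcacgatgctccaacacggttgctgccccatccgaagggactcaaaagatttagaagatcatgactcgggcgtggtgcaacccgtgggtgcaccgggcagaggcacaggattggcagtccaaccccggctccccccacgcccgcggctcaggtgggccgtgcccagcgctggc
Ephb3: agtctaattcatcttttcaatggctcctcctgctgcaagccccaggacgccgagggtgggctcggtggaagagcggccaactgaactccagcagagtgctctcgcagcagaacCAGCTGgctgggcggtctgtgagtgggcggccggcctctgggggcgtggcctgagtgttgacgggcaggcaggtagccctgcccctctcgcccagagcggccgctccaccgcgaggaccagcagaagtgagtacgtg

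The motifs were CTTTGAT and CTTTGAA, of the TCF/LEF type, and the E-box type CAGCTG, each read on both strands. Among 32851 RefSeq windows of this length, 3.21% held CTTTGAT, 4.46% CTTTGAA and 13% CAGCTG. The 7 windows of the 6 members with an entry (Olfm4, Ascl2, Axin2, Rnf43 with 2 windows, Cd44 and Ephb2) held none of them, which says only that these letters are not in these windows. The members without an entry were Lgr5, Smoc2, Sox9 and Znrf3.

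Between the regions at P6, 1 of the 10 genes was higher in the jejunum (Ephb2) and 1 in the ileum (Lgr5), where 11.1% and 14.8% of all tested genes were called in these directions. With the mouse as a fixed block 4 of the 10 passed, Ephb2 and Olfm4 (1.00, adjusted p = 0.0469) in the jejunum and Lgr5 and Znrf3 in the ileum, and the same 4 passed when the P6 ileum was reduced to 2 libraries. At P36 none was higher in the jejunum, while Lgr5 and Sox9, 2 of the 10, were higher in the ileum, against 8.3% and 7.8% of all genes. At an unadjusted p below 0.05 edgeR also put 0 toward the jejunum and 6 toward the ileum, and DESeq2 called 0 and 5. With the block 4 passed at P36, all toward the ileum: Cd44, Lgr5, Sox9 and Znrf3. For counts at an unadjusted p, by DESeq2, with the block or in any other refit, here and below, the share of all tested genes is not given. The percentages above are not their background. Left out singly, P6 jejunum replicate 4 lowered the P6 count to 1. The P36 count became 1 without P36 ileum replicate 2 or P36 jejunum replicate 1, 2 or 4, 4 without P36 ileum replicate 1, and 6 without P6 ileum replicate 4, which belongs to neither group but shares the estimate of spread. The median difference of the 10 genes was -0.06 at P6 and -0.64 at P36, beside -0.05 and -0.04 for all tested genes.

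With age 2 of the 10 genes rose in the jejunum (Smoc2 and Cd44) and 4 fell (Lgr5, Sox9, Rnf43 and Ephb2), against 24.7% and 26.9% of all tested genes. In the ileum 5 rose (Olfm4, Smoc2, Axin2, Cd44 and Ephb2) and 1 fell (Lgr5), against 25.5% and 30.1%. When the P6 ileum was reduced to 2 libraries, Olfm4, Smoc2, Cd44 and Ephb2 rose and Lgr5 and Rnf43 fell. The median change was -0.39 in the jejunum and 0.41 in the ileum, beside -0.01 and -0.03 for all genes; these comparisons share no library, but both use the 8 mice. The change of the regional difference with age passed for 1 of the 10, Ephb2, against 8.69% of all genes, and also for Lgr5 without P36 ileum replicate 1 (1.21, adjusted p = 0.0359). The study's own rule also asks for an absolute log2 fold change above 2. Under it Ephb2 alone passed at P6 between regions (6.5% of all genes) and in the jejunum with age (16.4%), and none of the 10 passed at P36 between regions (3.6%) or in the ileum with age (16.4%), with 0 in both also by DESeq2 and by the unadjusted p.

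**Figure D3:**
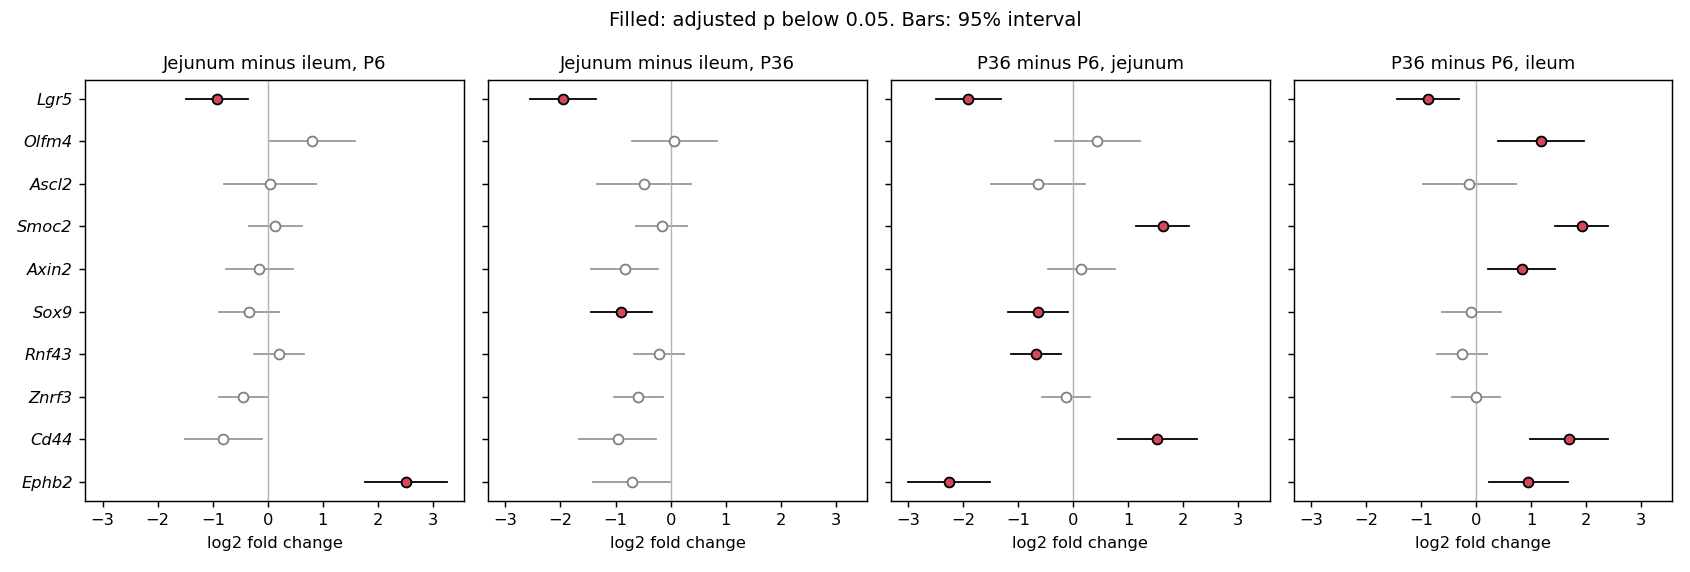
Log2 fold changes of the 10 genes in 4 comparisons, with bars for unadjusted 95% intervals and filled points where the adjusted p over 13429 genes was below 0.05. The bars, like the 95% intervals in the text, use the residual degrees of freedom alone and are wider than edgeR's test implies. That of Ephb2 between regions at P36 reaches 0.016, at an unadjusted p of 0.0493 by that test. Smoc2 and Cd44 lie to the right in both age comparisons and Lgr5 to the left, while Ephb2 lies on opposite sides in the jejunum and the ileum.

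Marker genes of other cells moved with age in the same libraries. The 8 Paneth cell genes rose in both regions, 8 of 8 in each, and their summed level was 19.5 to 41.2 CPM (P6 jejunum), 50.3 to 87.0 CPM (P6 ileum), 3975 to 7701 CPM (P36 jejunum) and 5289 to 17029 CPM (P36 ileum). Of 16 proliferation genes, 12 rose and 1 fell in the jejunum and 14 rose in the ileum, with summed levels of 570 to 789 CPM and 455 to 750 CPM at P6 and 1015 to 1291 CPM and 1100 to 1875 CPM at P36. No Paneth cell or proliferation gene was at 0 across a group. The part of these cells in the age differences of the 10 genes was not tested. The methods also give a longer range of EDTA incubation times at P36 than at P6, which cannot be told apart from age. Between regions at P36 none of the 16 proliferation genes passed in edgeR (6 toward the ileum at an unadjusted p below 0.05, and 3 by DESeq2), and 1 of the 8 Paneth cell genes was higher in the ileum. Between regions at P6, where Lgr5 and Ephb2 were called, 5 of 8 Paneth cell, 4 of 7 goblet cell and 5 of 6 fibroblast genes were higher in the ileum and 3 of 16 proliferation genes in the jejunum. With the P6 ileum reduced to 2 libraries these counts were 2, 5, 0 and 0. The summed goblet cell level was 1706 to 2301 CPM in the P6 jejunum and 1992 to 4112 CPM in the P6 ileum, and that of fibroblast genes 5.27 to 17.7 CPM and 20.2 to 245 CPM. The part of these cells in the regional differences of the 10 genes was not tested.

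**Figure D4:**
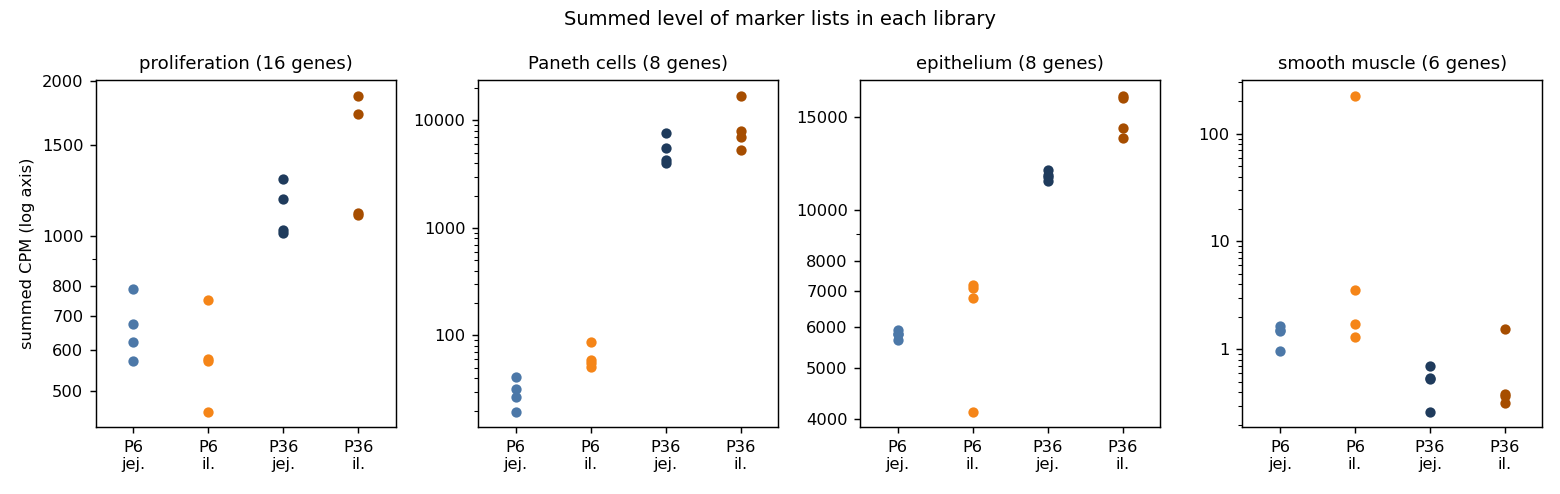
Summed CPM of 4 marker lists in each library, on log axes. Paneth cell and proliferation sums were higher in every P36 library than in every P6 library, P6 ileum replicate 2 stands at 225 CPM in smooth muscle genes, and P6 ileum replicate 4 is the lowest in epithelial genes at 4139 CPM.

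Other genes of the pathway were read by fixed lists that leave out the 10 genes. The 1 or 2 with the smallest adjusted p in a comparison are named. No list was tested as a set, and many counts lie near the share of all tested genes. With age 24.7% of all genes rose and 26.9% fell in the jejunum, and 25.5% and 30.1% in the ileum. Toward the jejunum and the ileum, 11.1% and 14.8% were called at P6, and 8.3% and 7.8% at P36. These shares also stand beside the marker list counts above. With the P6 ileum reduced to 2 libraries, the named genes kept direction and call in 15 of 15 differences at P6, 16 of 16 ileal changes with age and 10 of 10 changes of the regional difference, at 0.71 to 1.17 times the log2 values given here. Of 14 other stem cell genes, 6 rose and 4 fell with age in the jejunum and 6 rose and 2 fell in the ileum, with median changes of 0.25 and 0.53. Tert, the catalytic subunit of telomerase, fell by 3.98 ± 0.29 (jejunum) and 4.46 ± 0.30 (ileum), from group means of 54.4 and 38.0 CPM to 3.43 and 1.71 CPM. Nrn1, which encodes neuritin, fell by 3.76 ± 0.33 and 5.91 ± 0.37. Between regions at P6, 3 of the 14 were higher in the ileum, among them Nrn1 and Tnfrsf19, and at P36 Tert alone differed, higher in the jejunum. Tnfrsf19 was counted only 4 to 15 times a library in the P6 jejunum. In the P6 ileum it was counted 22, 70, 15 and 17 times in replicates 1 to 4.

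Of 25 genes for Wnt ligands, R-spondins and their secretion, 9 were tested. Of these 4 rose and 2 fell with age in each region. Wnt5a, a ligand that mainly acts without beta-catenin, fell by 3.82 ± 0.35 (jejunum) and 5.51 ± 0.37 (ileum), and at P6 was lower in the jejunum (12.7 CPM) than in the ileum (38.4 CPM). Wnt6 was read 0 to 2 times in the P6 libraries, 20 to 26 times in the P36 jejunum and 7 to 15 times in the P36 ileum, and passed the test in both regions. Wls, which carries Wnt proteins to the cell surface, was lower in the jejunum at both ages (-1.48 ± 0.26 at P6 and -2.08 ± 0.26 at P36).

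Of 18 Wnt receptor genes 15 were tested, and 4 rose and 5 fell with age in the jejunum, 5 rose and 3 fell in the ileum. Fzd5 rose in both regions (1.47 ± 0.14 and 1.65 ± 0.14), from means of 70.6 and 70.0 CPM to 195 and 220 CPM. Fzd8 fell in the jejunum by 3.01 ± 0.22. Fzd4 fell in the ileum by 3.38 ± 0.31 and was then higher in the P36 jejunum (20.4 CPM) than in the P36 ileum (2.51 CPM). Toward the jejunum 1 receptor gene was called at P36 and 2 at P6, and toward the ileum 6 and 2, with Fzd3 higher in the ileum at both ages and the co-receptor gene Ryk at P6. Fzd3 was counted only 8 to 10 times a library in the P6 jejunum and 2 to 5 times in the P36 jejunum.

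Of 20 Wnt inhibitor genes 11 were tested, and 5 fell with age in each region while 1 rose in the jejunum and 3 in the ileum. Apcdd1, a membrane inhibitor of Wnt signalling, measured 66.0 to 89.8 CPM in the P6 jejunum, 9.12 to 16.3 CPM in the P6 ileum, falling to 0.320 to 1.55 CPM in the P36 libraries. It fell by 7.17 ± 0.34 and 3.67 ± 0.30, and was higher in the jejunum at P6 by 2.59 ± 0.26. Notum, which encodes a secreted enzyme that inactivates Wnt proteins, fell from 42 to 405 counts a library at P6 to 0 to 8 at P36. Kremen2 was counted 20 to 192 times in the P6 jejunum and 0 to 5 times in the P6 ileum. Of the 11, 4 were called toward the jejunum and 1 toward the ileum at P6, and at P36 edgeR called none (3 toward the ileum at an unadjusted p below 0.05, and 1 by DESeq2), with median differences of 0.10 and -0.32.

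Of 30 genes of Wnt signal transduction 27 were tested; 3 rose and 9 fell with age in the jejunum, and 4 rose and 11 fell in the ileum. Tcf7l2, the main TCF factor of the intestinal epithelium, rose by 2.27 ± 0.23 and 1.78 ± 0.22. The corepressor gene Tle1 rose in the jejunum by 2.45 ± 0.14 and was higher there than in the ileum at P36, and Tnks, which encodes an enzyme that marks Axin for destruction, fell in the ileum by 1.29 ± 0.16. Between regions 1 gene passed at P6 (Ctnnbip1, higher in the jejunum) and 4 at P36, 2 in each direction, with Tcf7l1 among those higher in the ileum. Tcf7l1 was counted only 1 to 3 times a library in the P36 jejunum and 4 to 17 times in the P36 ileum.

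Of 17 other Wnt target genes 16 were tested. In the jejunum 9 rose and 3 fell with age, and in the ileum 10 rose and 1 fell, with median changes of 1.89 and 1.11. Efnb2 rose in the jejunum by 3.40 ± 0.16, the cyclin gene Ccnd1 in the ileum by 2.76 ± 0.23, and the proliferation factor gene Myb by 2.25 ± 0.22 and 2.53 ± 0.22. Mmp7, which is also on the Paneth cell list, is among those that rose, and Notum, also on the inhibitor list, among those that fell. Lef1 and Tcf7 are also on the signal transduction list and Nkd1 on the inhibitor list, so the lists are not separate. At P6 Plaur and Efnb2 were higher in the ileum, and at P36 Ets2 and Ccnd1 were. Plaur was counted only 2 to 7 times a library in the P6 jejunum and 34 to 69 times in the P6 ileum.

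**Figure D5:**
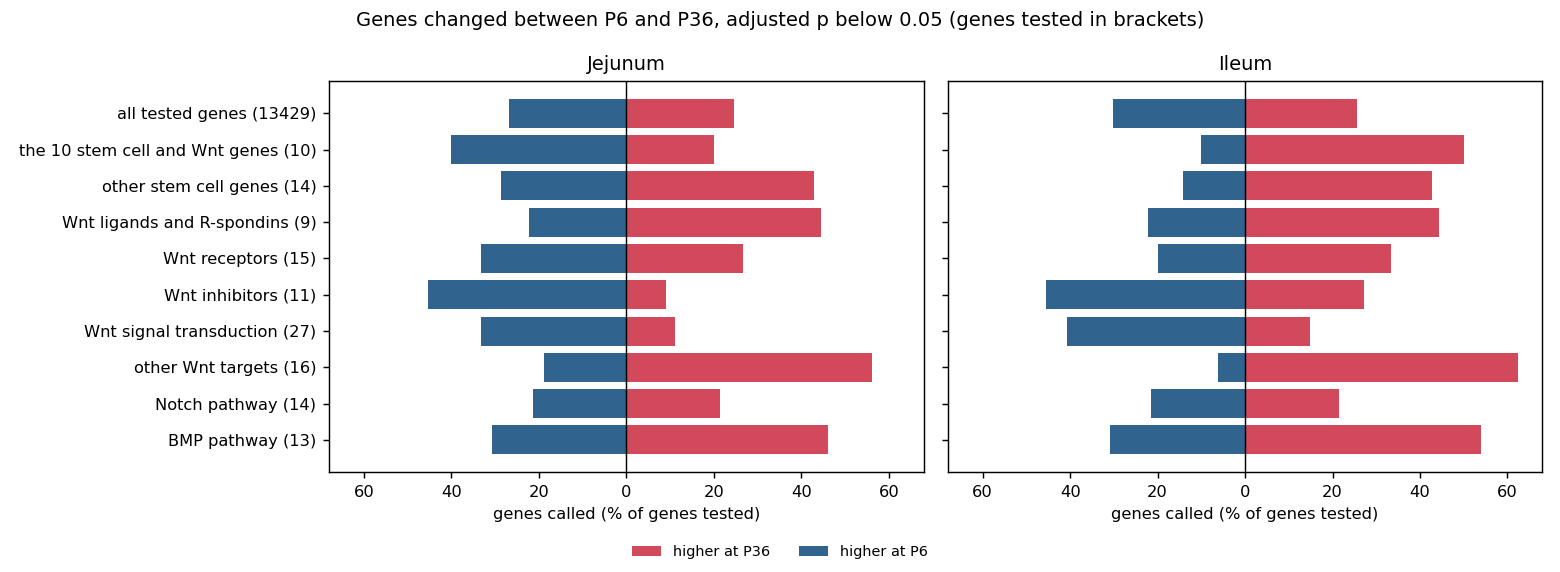
Percentage of tested genes higher at P36 (right) or at P6 (left) at an adjusted p below 0.05, for all genes, the 10 genes and 8 lists of related genes, with the number tested in brackets. Of the other Wnt targets, 9 of 16 in the jejunum and 10 of 16 in the ileum were higher at P36.

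Of 16 Notch pathway genes 14 were tested, and 3 rose and 3 fell with age in each region. Atoh1, the factor that commits cells to secretory fates, rose by 1.90 ± 0.20 and 1.81 ± 0.20 and was higher in the ileum at both ages. The ligand gene Dll4 rose by 3.01 ± 0.36 and 2.21 ± 0.34, and the ligand gene Dll1 was higher in the jejunum at both ages. Of 18 BMP pathway genes 13 were tested, with 6 rising and 4 falling in the jejunum and 7 and 4 in the ileum. The ligand gene Bmp7 fell in the jejunum by 6.09 ± 0.48, from a mean of 227 CPM to 3.31 CPM, and was higher in the ileum at P36. Id2, a BMP response gene, fell by 2.74 ± 0.22 and 3.49 ± 0.23, and the effector gene Smad1 rose in the ileum, from a mean of 21.5 CPM to 65.2 CPM, and was higher in the jejunum at P6, as was Smad4 at both ages.

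The genes whose pattern over the 16 libraries was most like that of Lgr5 were Rcan3, Ffar2, Car8, Ttc30a1 and Sgpp1, with root-mean-square differences of 0.45, 0.46, 0.47, 0.47 and 0.48 in mean-centred log2 CPM, where Lgr5 itself had an SD of 1.12. The nearest of the other 9 members was Sox9 at 0.78. For Olfm4, with an SD of 0.77, they were AW011738, Dhrs7, 2010107E04Rik, Mrpl47 and Adra2a, at 0.36, 0.38, 0.39, 0.40 and 0.41, and the nearest member was Smoc2 at 0.74. Among the members P6 jejunum replicate 4 was the lowest of its group for 8 of 10 genes and the highest for 0, P36 ileum replicate 1 was the lowest for 8 and the highest for 1, and P6 ileum replicate 4 the lowest for 6 and the highest for 2.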

How the data were processed

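Per the labels and the study's methods, epithelium was released with EDTA from a jejunal and an ileal segment of each mouse, and poly(A) RNA was sequenced with a stranded kit. The authors used Trimmomatic 0.38 for trimming and STAR (2.5.3 in the submitters' processing notes) for alignment to the mm10 genome, and counted reads over exons on the reverse strand with featureCounts 1.6.3; the deposited values are raw counts per gene. All 16 libraries entered 1 edgeR 4.0.16 fit (R 4.3.3, TMM factors, expression filter by group, quasi-likelihood test, 4 group means). The fit was also run on simulated counts in which far fewer genes changed than were called with age here. The outcome of that run is not given and does not bear on the results. CPM and RPKM use the TMM-scaled totals. The 10 members, the gene lists and the tests were chosen with earlier results of these data known. Named are the 10 genes in every comparison, up to 2 genes of each pathway list per comparison with the smallest adjusted p below 0.05, and the 5 genes nearest to Lgr5 and to Olfm4; the full levels of Ephb3, and genes named for library quality or for standing on 2 lists, were added after values were seen.

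Depth was 12159237 to 25947276 counts a library. Among the 10 genes counting error weighs most on Ascl2 (21 to 94 counts a library) and on Lgr5 in the P36 jejunum (61 to 129). Some of the other named genes were counted less, as given with them. The regions of a mouse are paired by the mouse named in the labels; their deviations from the group means correlated at r = 0.157 to 0.391 over all tested genes in the 8 mice. No pair of replicates agreed within sampling noise: over genes with a summed count of at least 10, chi-square per gene was 13.2 to 272 in the 24 pairs, where sampling alone gives about 1. At P6 replicates 2 and 4, and replicates 1 and 3, share a label prefix. These pairs gave 13.2 and 19.5 in the jejunum, against 34.3 to 45.9 for the other pairs. In the ileum they gave 265 and 20.4, against 40.9 to 272. Alternatives were DESeq2 1.42.0, other scalings and filters, fewer libraries, sex as a covariate, a robust prior, the mouse as a block (edgeR, or voom in limma 3.58.1) and each library left out.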

Additional observations from a re-analysis of the deposited data

Results flagged for a closer look

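In 6 of the 40 combinations of a gene and a group of 4 libraries, the lowest or the highest library was far from the other 3 for the group's range; chance gives about 1 in 20. They were Lgr5 in P36 jejunum replicate 4 (3.25 CPM, lowest), Olfm4 in P6 jejunum replicate 1 (422 CPM, highest), Ascl2 in P36 jejunum replicate 2 (1.59 CPM, lowest), Sox9 in P6 ileum replicate 3 (39.8 CPM, highest), Cd44 in P6 ileum replicate 4 (23.3 CPM, highest) and Ephb2 in P6 jejunum replicate 1 (229 CPM, highest).

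The regional difference changed between P6 and P36 by edgeR's test of the change itself, adjusted over 13429 genes, for Ephb2 (3.21 on the log2 scale, P6 difference minus P36 difference, jejunum minus ileum; adjusted p = 0.000481) and for 10 named genes of the related lists. On the same scale the change was 4.38 for Ephb3, 3.50 for Apcdd1, 2.51 for Ror2 and 0.60 for Smad1. It was -2.15 for Nrn1, -1.68 for Wnt5a, -2.63 for Fzd4, -1.60 for Tle1 and -1.81 for Efnb2. The fitted 6.54 for Kremen2 rests on 0 to 5 counts a library in the P6 ileum and depends on the prior count.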

How the results depend on the processing

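Over 50 member results and 1290 refits, 1175 kept direction and side of the threshold, 27 lost the call, 44 gained one and 44 changed sign; every sign change was of a difference that had not passed, and the cause of the others was not tested. With the fold minimum 1, 0, 1 and 0 members passed for P6 regions, P36 regions, jejunum with age and ileum with age. For P6 regions 4 passed on library totals, with the mouse as a fixed replicate block and with the P6 ileum reduced to 2 libraries. For P36 regions 5 passed by DESeq2 and on library totals, 6 with the 8 libraries compared and with the P6 ileum reduced, and 4 with the replicate block. With the 8 libraries compared, 8 passed for jejunum with age (Olfm4 and Ascl2 added) and 3 for ileum with age (Olfm4 at adjusted p = 0.0614, Axin2 at 0.0886 and Ephb2 at 0.0935 lost). Left out in turn, single libraries gave 1 to 3 members for P6 regions, 1 to 6 for P36 regions, 4 to 6 for jejunum with age, 4 to 7 for ileum with age and 1 to 2 for the change of the regional difference. With the P6 ileum reduced, calls in the related lists moved by over 1.5 times for Wnt inhibitors with age in the ileum (6 rather than 3 rose) and Wnt ligands (1 rather than 2 fell) and, between regions at P6, for Wnt receptors (1 toward the jejunum and 4 toward the ileum rather than 2 and 2), Notch genes (1 and 5 rather than 2 and 2), signal transduction (1 and 2 rather than 1 and 0), Wnt ligands (1 and 3 rather than 0 and 2) and Wnt inhibitors (4 and 0 rather than 4 and 1). The block changed no call of a member other than those given with the results. The share of all tested genes called in each refit is not given. A change in these counts can therefore not be told apart from a change in calls over all genes.

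On library totals all genes shifted by a median of -0.29 (P6 regions) and -0.14 (P36 regions), and differences turned for Ascl2 (-0.25), Smoc2 (-0.15) and Rnf43 (-0.079) in P6 regions, Olfm4 (-0.10) in P36 regions and Znrf3 (-0.0044) in the change of the regional difference. With the P6 ileum reduced they turned for Ascl2 (-0.45) and Rnf43 (-0.17) in P6 regions and Znrf3 (-0.11) in the change. In ileum with age Znrf3 turned to 0.020 by DESeq2 and with median-of-ratios factors, 0.015 with no filter, 0.012 with the 8 libraries compared and 0.0030 with the random block, and Ascl2 to 0.026 with that block. Left out in turn, single libraries gave -0.27 to 0.25 (Ascl2), -0.0018 to 0.22 (Smoc2), -0.38 to 0.16 (Axin2) and -0.0049 to 0.39 (Rnf43) in P6 regions. They gave -0.089 to 0.41 (Olfm4) and -0.32 to 0.12 (Smoc2) in P36 regions, -0.27 to 0.027 (Znrf3) in jejunum with age, -0.42 to 0.13 (Ascl2), -0.27 to 0.26 (Sox9) and -0.085 to 0.13 (Znrf3) in ileum with age, and -0.026 to 0.27 (Znrf3) and -0.0098 to 0.71 (Cd44) in the change.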
